A study of Arabidopsis thaliana with 6 samples.

Results

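Far-upstream poly(A) sites were read in 3'READS+ libraries of whole Arabidopsis thaliana seedlings. A far-upstream site was a poly(A) site cluster on the coding strand inside a nuclear protein-coding gene, more than 1000 nt before the gene's reference site. The reference site was the most distal cluster that held at least 10% of the gene's reads. A site also had to hold at least 30 reads over the 6 libraries and to lie more than 50 nt from tRNA, snoRNA, snRNA, rRNA and miRNA genes. By this rule 701 of the 217870 deposited clusters were kept, and they lay in 451 of the 18216 genes with assigned reads. The members were thus selected on read totals over all 6 libraries and on positions, which are given as a description. The contrast of light with darkness was not part of the rule, so their shares in Light and Dark could be tested. The members and the gene lists used below were, however, chosen with earlier results of these data known.

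The seedlings were of the Col-0 ecotype, described in the labels as wild type, and were 1 to 2 weeks old. They had grown at 22 °C under constant white light of 70 to 100 µmol per square metre per second. All were then placed in darkness for 48 h, after which those of the Light group (3 libraries) were returned to light for 6 h and those of the Dark group (3 libraries) stayed in darkness for those 6 h. The comparison asks whether renewed light changes how often transcripts end far inside a gene. Both groups thus share the long dark period, and neither stands for seedlings kept in light. Whole seedlings mix organs, so fewer cells of a type and less RNA per cell cannot be told apart. The labels do not say that libraries of a group came from separate plantings, and p-values then measure only the spread between these libraries, which may be technical.

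3'READS+ captures polyadenylated RNA fragments and sequences the position where the RNA was cleaved and its poly(A) tail added. Cleavage at the end of a gene gives the full-length mRNA. Cleavage far inside it, often within an intron, gives a shorter RNA that can lack coding sequence. In Arabidopsis such sites are best known from FCA and FPA, RNA-binding proteins that promote flowering and that limit their own full-length mRNA by ending it early, from the polyadenylation factor CPSF30, which makes a short and a long protein in this way, and from IBM1, a histone demethylase whose full-length mRNA must span a long intron. The gene table used here gives gene bounds but no exon, intron or untranslated region, so a member may lie in an intron, in coding sequence or in a long 3' untranslated region. No genome sequence was used, and no motif or A-rich stretch beside a site was examined.

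The 6 libraries held 13.2 to 14.5 M reads, and replicates differed by more than sampling noise. Marker genes of leaf mesophyll and root were higher in Light. RBCS1A, the small Rubisco subunit of leaf mesophyll, stood at 8443 ± 781 CPM (counts per 1 M reads, after scaling) in Light and 3243 ± 458 in Dark, and PYK10, a beta-glucosidase of root and hypocotyl, at 7150 ± 585 and 1622 ± 473 (SD, n = 3 each). In all, 5 of the 6 mesophyll and root markers were higher in Light by edgeR's quasi-likelihood test. The other 1, the root hair marker COBL9, had 0 assigned reads, which also arises where a gene's strand was not resolved. Of 4 epidermis, guard cell and phloem markers 1 rose and 1 fell, and 3 seed storage genes had 54 to 110 reads each. None of these markers holds a far-upstream site, and the part of organ make-up in the results was not tested.

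The members were rare ends with a wide range of weight. Together they held 96989 reads, 0.121% of the reads assigned to genes, with 30 to 5069 reads each and a median of 58. Their share of the reads of their gene had a median of 4.27% and ran from 0.0268% to 73.3%. It was below 1% at 130 sites, at least 5% at 318, at least 20% at 84 and at least 50% at 12. The rule on reads kept sites such as 1 in HUB2, a histone ubiquitin ligase, with exactly 30 reads (2.58% of the gene), and left out sites such as 1 in AT1G56500 with 29 reads (1.60%). A further 26028 clusters lay as far upstream with fewer than 30 reads. On the distance rule, a site of CCB4 lay just inside at 1001 nt and a site of AT3G58090 just outside at 1000 nt.

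Most members lay in the front part of long genes, a position and a length that the distance rule favours. Their distance to the reference site had a median of 1919 nt, with quartiles of 1343 and 3144 nt, and reached 20860 nt in AT1G67120. Measured along the gene, the median site stood at 38.2% of the length from the start, and 484 of 701 (69.0%) lay nearer to the start than to the end. The 451 genes had a median length of 3812 nt, against 2424 nt for all genes with assigned reads. The distance rule requires a long gene. It also leaves out the stretch next to the reference site, which moves members toward the gene start. Whether they lay nearer to the start than this rule alone would place them was not tested. A single member was found in 298 genes, 2 in 93 and 3 or more in 60. Members of 1 gene formed tight groups: the median gap between neighbours was 49.5 nt, and 191 of 250 gaps were at most 100 nt. Such neighbours share a denominator and often a region, so they are not independent sites. Another annotated gene overlapped 25 members, in 16 cases a long non-coding RNA gene, and 12 members lay within 500 nt of the end of an upstream gene on their strand.

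**Figure D1:**
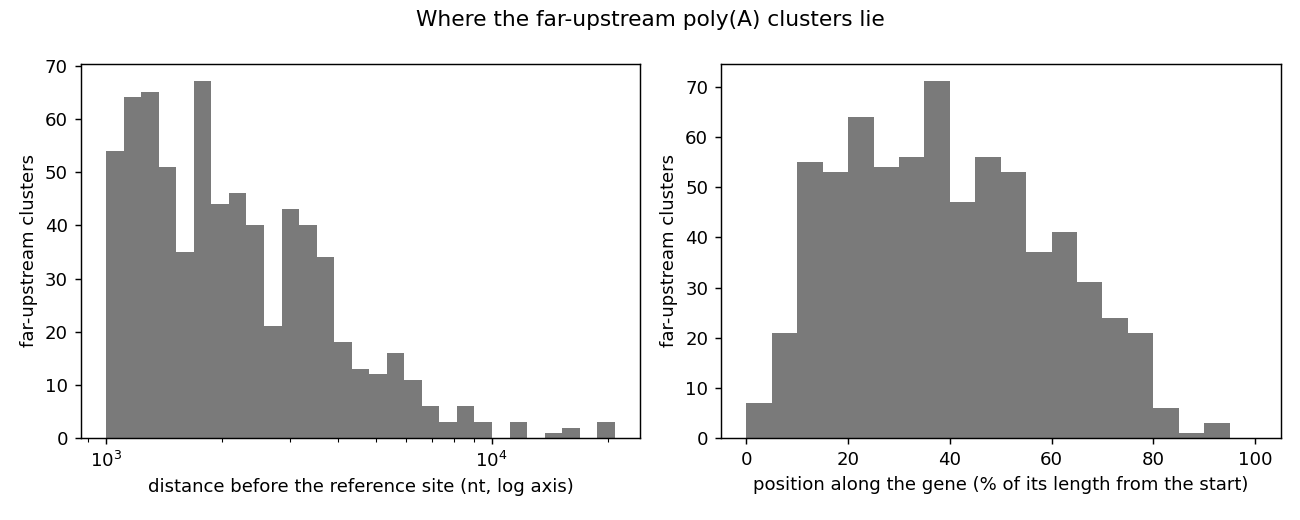
Position of the 701 far-upstream clusters. The left panel counts clusters by their distance before the reference site in nt (log axis), and the right panel by their position along the gene as a percent of its length from the start. Counts fall with distance from 1000 nt on, and 484 of the 701 clusters lie left of 50% in the right panel. The distance rule leaves out sites close to the reference site, which favours the left of that panel.

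As a whole, the far-upstream sites took no clearly different part of the reads in light. They held 0.112%, 0.115% and 0.119% of the assigned reads in the Light libraries and 0.135%, 0.117% and 0.129% in the Dark libraries. Dark replicate 2 lay between Light replicates 2 and 3, so the groups overlapped. The means were 0.115% ± 0.00337 and 0.127% ± 0.00923 (SD, n = 3 each), and a two-sided exact permutation test gave p = 0.2, where 0.1 is the lowest value that the 20 possible arrangements allow. This order rested on 3 genes with very many reads, GPX5, AT5G27730 and FCA: without them, a choice made after seeing the data, Light exceeded Dark by 0.00203 percentage points (exact permutation p = 0.7). Averaged over the 451 genes with equal weight, the far-upstream share was 13.9% ± 0.507 in Light and 13.6% ± 0.163 in Dark (exact permutation p = 0.4).

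Under that near balance, single sites moved both ways. The share of each site was tested against the average of its gene with edgeR's diffSpliceDGE over all 40747 clusters that passed the filter on low counts in a gene with another such cluster, and a call is an adjusted p below 0.05. Of the 701 members, 387 in 251 genes could be tested. Among these, 104 had a higher share in Light, 70 a lower one and 213 were not called. That is 45.0% of the tested members (26.9% higher and 18.1% lower), beside 18.8% of all clusters tested (12.5% higher and 6.33% lower). The median log2 change of usage was 0.25 over the tested members and 0.03 over all clusters. A low site can pass the filter through the group in which it is high, so these counts are not counts over all members. For such a site, marked below or not, the p-value is a description. Of the 197 members with at least 100 reads, 195 were tested, and 57 rose and 41 fell, 50.3% against 19.2% of all clusters with as many reads (12.4% higher and 6.87% lower). Without any filter all 701 were tested, and 104 rose and 68 fell. That is 24.5% of the members, below the 45.0% of the filtered test, beside 10.4% of all clusters with at least 30 reads in the same unfiltered test (7.13% higher and 3.27% lower). In plain shares, 208 of the 701 members (29.7%) had all 3 Light libraries above all 3 Dark libraries, 147 (21.0%) had them all below, and 346 overlapped. Over all clusters with at least 30 reads, in genes with another cluster, groups did not overlap in 40.2% (21.9% higher and 18.3% lower), so these member counts lie nearer to the background than the test's calls do.

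The share of called members varied little with distance. It was 43.8% at 1000 to 2000 nt (60 higher and 29 lower of 203 tested), 46.5% at 2000 to 4000 nt (33 and 27 of 129) and 45.5% beyond 4000 nt (11 and 14 of 55). Clusters that lay 400 to 1000 nt before the reference site were called in 31.0% of 374 cases (22.2% higher and 8.82% lower), and those nearer to it or beyond it in 18.4% (12.2% and 6.19%).

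Counted by gene, 77 genes held a member with a higher share in Light and 58 a member with a lower one, with 4 genes in both counts: PTM, AT1G58602, AT4G31980 and AT3G03890. Summing all members of a gene and setting them against the rest of its reads gave a similar count. Of 278 member genes with both sums tested, 77 had a higher and 58 a lower far-upstream sum in Light by edgeR (48.6%). Over all 363 genes in which such a sum could be tested it was 46.3% (28.1% higher and 18.2% lower). The 363 include the 278, so this is no separate background. For the genes counted by single members no share over all genes was computed. Of all clusters tested, 12.5% were called higher and 6.33% lower.

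**Figure D2:**
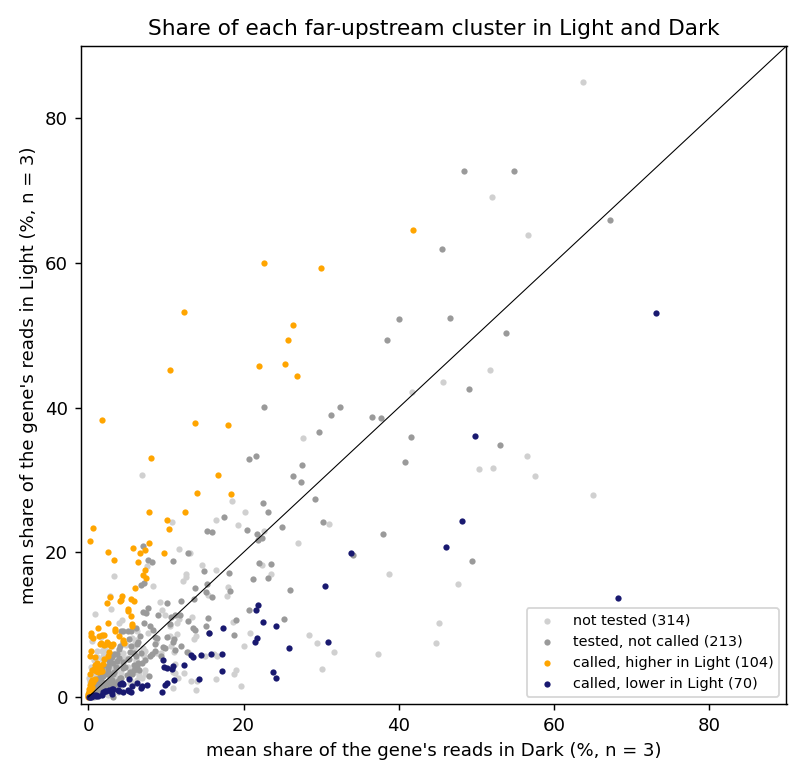
Mean share of the gene's reads in Light (y axis, %, n = 3) against Dark (x axis, %, n = 3), 1 point for each of the 701 clusters. Orange points are the 104 clusters called higher in Light, blue points the 70 called lower, dark grey the 213 tested but not called and light grey the 314 not tested. Called points lie on both sides of the line of equal shares.

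A share is a ratio, so the levels of the site and of its gene were set beside it. Of the 104 members with a higher share in Light, the site's own CPM was higher in 71, not called in 26 and lower in 7, while its gene was higher in 18, lower in 53 and not called in 33. Of the 70 members with a lower share, the site itself was lower in 62 and not called in 8, and the gene was lower in 36, higher in 11 and not called in 23. Over the 395 members that passed the filter, 118 rose and 156 fell in level (69.4%, beside 68.1% of all clusters tested, 35.3% higher and 32.8% lower). Of the 451 member genes 100 rose and 233 fell (73.8%, beside 72.9% of all genes tested, 37.4% higher and 35.6% lower). These levels depend on the scaling between libraries. The normalization used (TMM) sets gene level changes 0.45 lower on the log2 scale than library totals do, and with library totals alone 169 member genes rose and 165 fell, and 144 member sites rose and 127 fell. Any level change between -0.45 and 0 below would therefore change sign with library totals. Shares need no such scaling, and the usage test again called 104 and 70 members with library totals.

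Of 6 genes listed for known upstream poly(A) sites, 5 held members, 16 in all. Of the 13 tested, 7 had a higher share in Light and 2 a lower one, with a median log2 usage change of 0.89. Over all tested members 26.9% were higher and 18.1% lower, and over all clusters tested 12.5% and 6.33%. The 7 lay in only FPA, AT1G58602 and FCA, and neighbours in 1 gene are not independent. Some of these calls were lost when 1 library was left out, as given below. In level, 4 of the 6 genes fell and 0 rose, beside 35.6% and 37.4% of all genes tested. FCA, on the minus strand of chromosome 4, held 4 members within 106 nt, at positions 9213171 to 9213277 (TAIR10), 6107 to 6213 nt before the reference site. The strongest, at 9213203, took 59.2%, 71.6% and 66.9% of FCA reads in the Light libraries and 71.7%, 61.3% and 68.9% in the Dark libraries. These ranges overlapped fully, and its usage was not called by edgeR (adjusted p = 0.903).

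What changed at FCA was the amount of both ends. The 4 members summed to 15.5 ± 1.48 CPM in Light and 91.9 ± 21.6 in Dark, and the rest of the gene to 3.64 ± 1.02 and 28.0 ± 2.15 (SD, n = 3 each). The gene fell by 2.66 on the log2 scale (edgeR adjusted p = 6e-10), while the far-upstream share was 80.9% ± 5.85 in Light and 76.0% ± 5.96 in Dark (edgeR adjusted p = 0.95). Of the 4, the site at 9213234 had a called rise in share, from 5.61% ± 1.13 to 9.84% ± 2.39 (edgeR adjusted p = 0.0169), which was lost without Light replicate 3 (adjusted p = 0.177) or without Dark replicate 3 (0.0768).

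FPA behaved otherwise. Its 3 members lay within 62 nt, 5294 to 5356 nt before the reference site on the minus strand of chromosome 2, and 629 to 691 nt from the gene start. The strongest, at position 18030626, took 23.5%, 24.7% and 21.3% in Light and 11.1%, 9.79% and 10.5% in Dark, so every Light library exceeded every Dark library. Its usage rose by 1.18 on the log2 scale (edgeR adjusted p = 1.62e-05). The calls at 18030564 and 18030599 (edgeR adjusted p = 0.00919 and 0.0368) were less firm. That at 18030564 was lost without Light replicate 1 or Dark replicate 2 (0.102 and 0.0535) or without the filter (0.0565). That at 18030599 was lost without Light replicate 1, Light replicate 3 or Dark replicate 3 (0.112, 0.130 and 0.300). It was also lost without the filter (0.178) and with limma's diffSplice (0.0631). Summed, the FPA members went from 16.3% ± 1.40 in Dark to 34.2% ± 2.48 in Light (edgeR adjusted p = 1.65e-05). Their level was 11.0 ± 1.18 CPM in Light and 12.3 ± 0.289 in Dark and was not called (edgeR adjusted p = 0.334; the sign of this small difference turns with library totals), whereas the rest of the gene stood at 21.4 ± 4.34 and 63.7 ± 7.18 CPM.

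CPSF30 went the other way. Its 2 members, at positions 10774324 and 10774386 on the minus strand of chromosome 1, lay 3058 and 3120 nt before the reference site. Together they took 17.5%, 14.0% and 8.89% of its reads in Light and 51.1%, 45.2% and 45.2% in Dark. The groups stood far apart, although the gene is weakly expressed, with 165 reads over the Light and 171 over the Dark libraries. The summed usage fell by 1.73 on the log2 scale (edgeR adjusted p = 0.000448). This sum passed the filter on low counts only through its Dark libraries, so the p-value is given as a description. The far-upstream level was 0.505 ± 0.232 CPM in Light and 2.28 ± 0.172 in Dark, and the rest of the gene 3.12 ± 0.414 and 2.58 ± 0.506 (edgeR adjusted p = 0.366).

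IBM1 held 1 member, 3822 nt before the reference site. It took 3.32%, 6.58% and 8.12% in Light and 9.38%, 9.06% and 6.10% in Dark. The groups overlapped, and neither its usage (edgeR adjusted p = 0.54) nor the level of IBM1 (adjusted p = 0.302) was called. AT1G58602, listed here among known upstream-site genes and immune receptor genes, held 6 members spread over 10459 nt. The site at position 21761648, 4056 nt before the reference site, took 15.5%, 15.6% and 14.3% in Light and 5.90%, 6.86% and 5.39% in Dark, without overlap. Its usage rose by 1.36 on the log2 scale (edgeR adjusted p = 1.03e-06). Of the 5 other members, those at 21764361 and 21761699 rose too (edgeR adjusted p = 1.33e-05 and 0.00901), the latter not without Light replicate 3 (0.0793). The site at 21764680 was called lower, with 0.860% ± 0.138 in Light and 2.12% ± 0.369 in Dark (edgeR adjusted p = 0.0298), and lost this call without any 1 of the Light libraries or without Dark replicate 2 (0.0561 to 0.141). With 7, 6 and 8 reads in Light, it passed the filter on low counts only through its Dark libraries, so the p-value is a description. The remaining 2 were not tested. The 6 members together took 30.9% ± 2.75 in Light and 13.6% ± 1.11 in Dark (edgeR adjusted p = 9.19e-07).

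**Figure D3:**
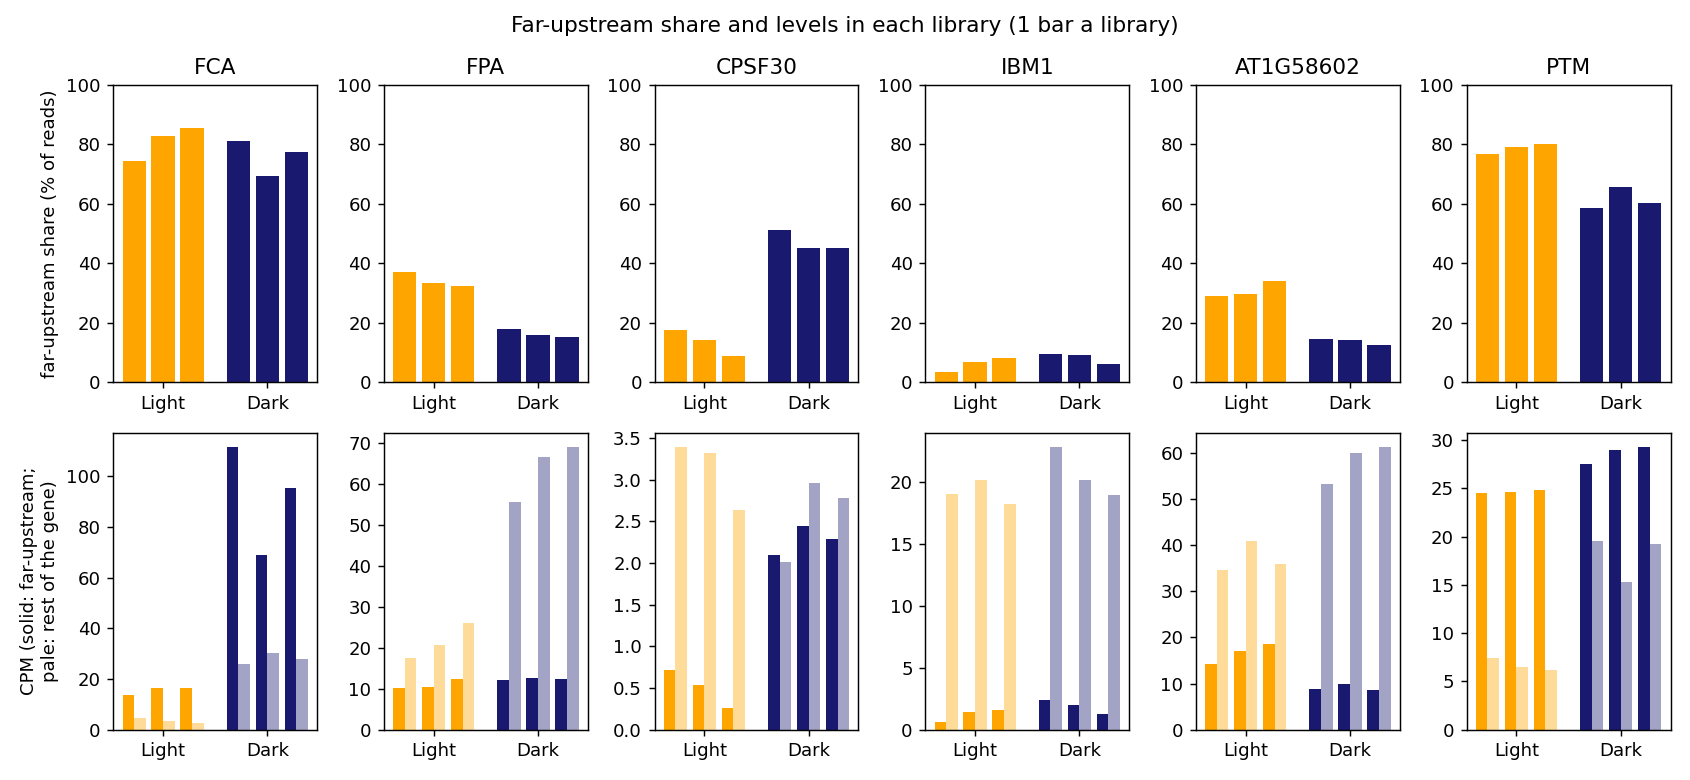
Far-upstream share and levels in each library of 6 genes, 1 bar a library (orange, Light; blue, Dark). The upper row gives the summed far-upstream share (% of the gene's reads), and the lower row the CPM of the far-upstream sites (solid) and of the rest of the gene (pale). In FCA both bars are lower in Light at a like share, in FPA the pale bars are lower in Light, and in CPSF30 the solid ones are.

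Of 23 factors of 3' end formation, 7 held members, 17 in all. Of the 14 tested, 4 had a higher and 4 a lower share in Light, beside 26.9% and 18.1% of all tested members. FCA, FPA and CPSF30 are among the 7 genes. AT4G25550, a further gene of this list, had 3 members at positions 13049381 to 13049453 on the plus strand of chromosome 4, 1716 to 1788 nt before the reference site. Together they took 8.52%, 6.92% and 6.35% of its reads in Light and 18.1%, 20.4% and 18.9% in Dark, without overlap (edgeR adjusted p = 9.02e-06). The level of AT4G25550 was not called (log2 change 0.07, edgeR adjusted p = 0.591). ESP4, a symplekin-like scaffold protein of the 3' end machinery, had 3 members 7342 to 8177 nt before its reference site, with a summed share of 24.7% ± 0.782 in Light and 22.3% ± 4.89 in Dark, which was not called (edgeR adjusted p = 0.948). FIP1[V], a subunit of the cleavage and polyadenylation complex, had 1 member that fell from 2.88% ± 1.32 in Dark to 0.893% ± 0.125 in Light (edgeR adjusted p = 0.00307), a call that was lost without Dark replicate 1 (0.0795). It held 5, 5 and 4 reads in the Light libraries and passed the filter on low counts only through its Dark libraries. The p-value is therefore given as a description. The member of CSTF77, a subunit of the cleavage stimulation factor, held 31 reads and was not tested; it took 2.41% ± 0.134 in Light and 0.594% ± 0.235 in Dark.

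Other genes of RNA metabolism held members too. DCL1, the Dicer enzyme that makes most microRNAs, had 1 site at position 27531 on the plus strand of chromosome 1, 3654 nt before its reference site. It took 0.324%, 3.90% and 0.769% of DCL1 reads in Light and 9.06%, 9.38% and 11.4% in Dark. All Light libraries lay below all Dark ones, although Light replicate 2 stood apart from the other two. The usage fell by 2.67 on the log2 scale (edgeR adjusted p = 1.93e-05), in a gene that itself fell by 0.73. With 1, 9 and 2 reads in the Light libraries, the DCL1 site passed the filter on low counts only through its Dark libraries. Its p-value is therefore given as a description. Of 29 splicing regulators 3 held members, 3 in all, and 1 of 2 tested was called. That one, in SR34, an SR protein, held 1 read in Light and 50 in Dark, at most 0.388% of the gene in any library. It was listed at 0 in Light replicates 1 and 3, where a count of 0 allows up to 0.202% and 0.226% (counting error only). The fall in its usage had an edgeR adjusted p of 0.00433, which rose to 0.0610 without Light replicate 1. This site passed the filter on low counts only through its Dark libraries, so the p-value is given as a description. The member of RS31, another SR protein, stood at 2.47% ± 1.32 in Light and 2.82% ± 0.687 in Dark (edgeR adjusted p = 0.813), and that of SR34b was not tested.

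UBA2A, an RNA-binding protein, held more members than any other gene, 7 within 495 nt, 1106 to 1601 nt before the reference site on the minus strand of chromosome 3. Together they took 74.6%, 71.7% and 71.7% of its reads in Light and 36.2%, 41.7% and 38.2% in Dark. The groups were far apart and the usage sum rose by 0.92 on the log2 scale (edgeR adjusted p = 1.38e-05). The gene's level was not called (log2 change -0.08, edgeR adjusted p = 0.583): the members rose from 13.7 ± 1.16 to 24.6 ± 0.982 CPM and the rest of the gene fell from 21.8 ± 3.99 to 9.25 ± 0.699 CPM. Of the 7 sites, 5 were called higher and 0 lower. The calls at 21050056 (13.2% ± 2.74 in Light and 5.82% ± 0.947 in Dark, edgeR adjusted p = 0.000735) and 21050157 (20.0% ± 2.08 and 9.80% ± 2.07, adjusted p = 0.000488) held with each library left out. The other 3 calls, at 21050126, 21050255 and 21050507, were less firm. They were lost without the filter on low counts (edgeR adjusted p = 0.0666, 0.127 and 0.140) and when 1 of several libraries was left out. That at 21050126 was lost without Light replicate 3 or Dark replicate 1 (edgeR adjusted p = 0.0776 and 0.155). That at 21050255 was lost without Light replicate 1, Light replicate 3 or Dark replicate 3 (0.111, 0.110 and 0.144), and that at 21050507 without Light replicate 2, Dark replicate 1 or Dark replicate 3 (0.120, 0.190 and 0.124). The site at 21050507 also passed the filter on low counts only through its Light libraries, so its p-value is a description.

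Of 13 listed NLR immune receptors, intracellular proteins that detect pathogens, 3 held members, 12 in all. The list does not cover the whole family, so this is no count over all such genes. Of 9 tested, 4 had a higher share in Light and 1 a lower one, beside 26.9% and 18.1% of all tested members. The AT1G58602 sites given above are counted here again. Besides AT1G58602, RPS6 had 3 members, 1274 to 1405 nt before its reference site on the plus strand of chromosome 5. They took 31.7%, 24.7% and 18.7% of its reads in Light and 8.70%, 8.96% and 10.3% in Dark. All Light libraries were higher, and the summed usage rose by 1.43 on the log2 scale (edgeR adjusted p = 0.0002). The level of RPS6 was not called (adjusted p = 0.908). In RRS1 the 3 members took 35.8% ± 7.22 in Light and 44.6% ± 2.69 in Dark and were not called (edgeR adjusted p = 0.531).

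Over all genes with assigned reads, 2.48% held a member, so short lists can hold none at that share. Of 25 light receptors and light signalling genes, 0 held a far-upstream site by this rule, and 10 rose and 11 fell in level by edgeR. Nor did any of 8 genes of darkness and starvation catabolism, of which 8 fell. Over all genes tested, 37.4% rose and 35.6% fell in level. Of 16 clock genes, 2 held 3 members, and the 1 tested, in AT3G54500, was not called (edgeR adjusted p = 0.96). LCL1, a clock-related MYB factor, held a site with 37 reads that took 0.340%, 0.554% and 1.00% in Light and 0.0452%, 0.0704% and 0.103% in Dark and was not tested. The groups did not overlap, but the counts were only 26 and 11 reads in a gene that fell by 2.15 on the log2 scale. Of 13 listed chromatin and silencing genes, again a short list, 2 held members, those of DCL1 and IBM1 already given.

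The called sites with the largest differences in share were in genes of many kinds. The rule for these took called members whose higher group averaged at least 5% of the gene and whose groups did not overlap, which left 116 sites (72 higher in Light and 44 lower) in 92 genes, and named the 12 with the largest difference of mean share in each direction. This rule was not applied to all clusters, of which 12.5% of those tested were called higher and 6.33% lower. The 72 and 44 are thus no result about the members. The call, the lack of overlap and the difference chose them, so their shares, gaps and p-values are given as a description.

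In the 12 that were higher in Light, the widest gap was in AT1G20690, where the site at position 7176024 on the minus strand of chromosome 1 took 47.4%, 54.7% and 57.5% in Light and 12.3%, 12.2% and 12.5% in Dark (edgeR adjusted p = 1.11e-08). It overlaps the long non-coding RNA gene AT1G20691, and reads of the 2 genes cannot be told apart there. In AT4G32440 the site at position 15658890 took 33.8%, 36.4% and 44.8% in Light against 0.955%, 1.91% and 2.55% in Dark. Its 2 members together rose by 3.23 in level on the log2 scale, while the rest of the gene fell by 2.06 (edgeR adjusted p = 1.44e-07 and 2.33e-08). In AT3G29185 the site took 25.7%, 18.8% and 25.7% in Light. In Dark it had 0 reads in replicates 1 and 2, which allows up to 6.98% and 8.57% (counting error only), and 1 read in replicate 3 (edgeR adjusted p = 4.82e-05). It passed the filter on low counts only through its Light libraries.

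LIG6, a plant DNA ligase, ended early more often in Light. Its site at position 24884813 on the plus strand of chromosome 1, 132 nt from the gene start and 7222 nt before the reference site, took 43.1%, 53.8% and 38.7% of its reads in Light and 4.76%, 5.41% and 21.4% in Dark. Dark replicate 3 was the highest of the Dark libraries and still below every Light library, which the choice of these sites required. The usage rose by 1.81 on the log2 scale (edgeR adjusted p = 0.00304) with no called change of the gene (0.477). With 2, 2 and 9 reads in Dark, the LIG6 site passed the filter on low counts only through its Light libraries.

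NAKR1, a heavy-metal-binding protein of phloem companion cells, had 5 members 1338 to 1472 nt before its reference site on the minus strand of chromosome 5. The strongest, at position 585560, took 52.6%, 50.9% and 50.7% in Light and 26.7%, 24.2% and 28.2% in Dark. All 5 together took 86.0% ± 1.69 in Light and 42.5% ± 2.38 in Dark (edgeR adjusted p = 8.16e-07). The far-upstream level was lower in Light (20.6 ± 1.08 against 31.2 ± 2.02 CPM), and the rest of the gene far lower still (3.37 ± 0.64 against 42.3 ± 3.61 CPM). So the share rose while the site's own level fell.

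PRA1.B1, a prenylated Rab acceptor of the membrane traffic system, held 5 members, and the strongest, at position 20821976 on the minus strand of chromosome 3, took 69.8%, 59.8% and 64.2% in Light and 39.3%, 44.8% and 41.7% in Dark (edgeR adjusted p = 0.00209). CYP705A15, a cytochrome P450, had a site 3090 nt before its reference site with 31.9%, 31.2% and 36.1% in Light and 7.06%, 9.30% and 7.85% in Dark (edgeR adjusted p = 3.52e-07). RLP13, a receptor-like protein, had a site with 45.8% ± 5.88 in Light and 22.0% ± 8.83 in Dark (edgeR adjusted p = 0.00166). AT3G26920, AT5G46270 and AT5G53740 complete the set with PTM, described next. Their sites took 49.3%, 37.8% and 60.0% in Light and 25.7%, 13.8% and 22.6% in Dark (means, n = 3). AT5G53740 had only 192 reads in all, and its call (edgeR adjusted p = 0.0282) was lost without any 1 of the Light libraries (0.0733 to 0.1125) or without Dark replicate 3 (0.149).

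PTM, a PHD-type transcription factor with transmembrane domains that is held at the chloroplast envelope, appeared in both directions. Its 5 members lay within 141 nt, 1775 to 1916 nt before the reference site on the minus strand of chromosome 5. The site at position 13475946 took 55.6%, 62.6% and 59.5% in Light and 28.2%, 32.7% and 29.2% in Dark. The site at 13476087 took 12.3%, 8.04% and 9.34% in Light and 23.0%, 24.8% and 24.8% in Dark. Both sites were chosen for a call without overlap of the groups, and their usage changed by 1.02 and -1.25 on the log2 scale (edgeR adjusted p = 5.34e-07 and 1.09e-06). Within the same short stretch, use thus moved from the more upstream to the more downstream site in Light. Summed, the 5 members took 78.7% ± 1.64 in Light and 61.5% ± 3.68 in Dark, which did not pass the test (edgeR adjusted p = 0.0645) and did so without Dark replicate 2 (0.0291).

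**Figure D4:**
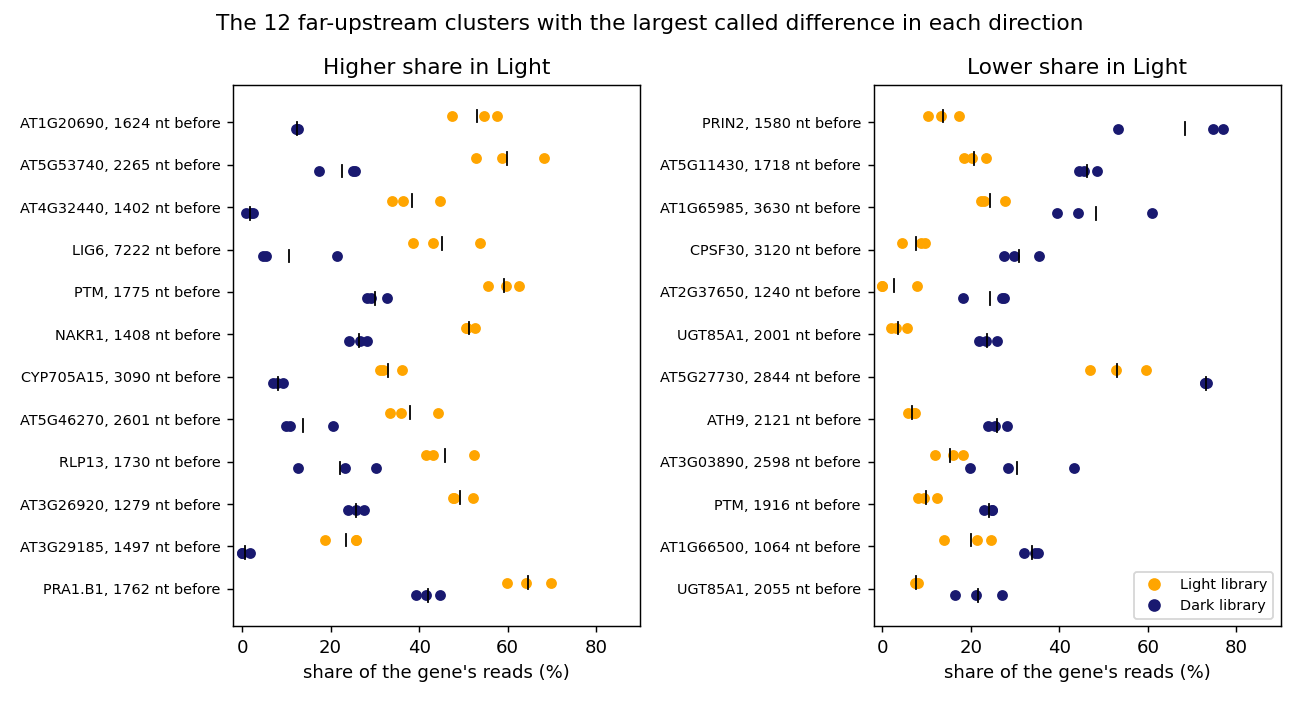
Share of the gene's reads (x axis, %) at the 12 called far-upstream clusters with the largest difference in each direction, 1 row a cluster, labelled by gene and distance before the reference site. Each dot is 1 library (orange, Light; blue, Dark) and the vertical tick is the mean of 3. No row has overlapping groups, which the choice of these clusters required.

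Among the 12 that were lower in Light, PRIN2, a protein that plastid gene transcription depends on for its response to redox state, changed most. Its site at position 3469839 on the plus strand of chromosome 1, 327 nt from the gene start, took 17.3%, 10.3% and 13.2% in Light and 74.7%, 53.3% and 76.9% in Dark. The usage fell by 2.35 on the log2 scale (edgeR adjusted p = 4.16e-07). The level of this early end was 2.82 ± 0.777 CPM in Light and 9.68 ± 4.16 in Dark, and that of the rest of the gene 18.0 ± 3.00 and 3.99 ± 0.294 CPM. The whole gene rose only by 0.60 on the log2 scale (edgeR adjusted p = 0.0129). The site lies 384 nt after the end of an upstream gene on the same strand, so reads that run on from that gene cannot be told apart from early ends of PRIN2.

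UGT85A1, a glucosyltransferase that acts on cytokinins, had 4 members, of which 2 are in this set. They lay at positions 7905678 and 7905732 on the minus strand of chromosome 1, 2001 and 2055 nt before the reference site. The first took 2.98%, 1.83% and 5.62% in Light and 23.5%, 21.8% and 26.0% in Dark, and the second 8.09%, 7.32% and 7.50% in Light and 27.1%, 16.5% and 21.1% in Dark. The first passed the filter on low counts only through its Dark libraries. All 4 members summed to 13.5% ± 1.84 in Light and 57.3% ± 7.73 in Dark (edgeR adjusted p = 1.09e-08). Their level fell by 3.84 on the log2 scale, and that of the rest of the gene by 0.73.

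AT5G11430 had a site with 20.2%, 23.4% and 18.5% in Light and 45.6%, 48.4% and 44.5% in Dark (edgeR adjusted p = 0.0008). ATH9 had a site with 7.14%, 7.41% and 5.68% in Light and 28.2%, 25.4% and 24.0% in Dark (edgeR adjusted p = 1.99e-05), and the level of the rest of ATH9 was not called (9.25 ± 1.63 against 9.54 ± 0.66 CPM, adjusted p = 0.825). In AT2G37650 the site had 0 reads in Light replicates 1 and 2, which allows up to 5.56% and 6.82% (counting error only), 7.87% in Light replicate 3, and 27.6%, 27.0% and 18.2% in Dark (edgeR adjusted p = 0.000683). It passed the filter on low counts only through its Dark libraries. The remaining 4 sites of the set were called less firmly, and each call was lost when 1 of several libraries was left out. AT1G65985 (24.3% ± 2.89 in Light and 48.2% ± 11.3 in Dark, edgeR adjusted p = 0.0209) was not called without any 1 of the Light libraries or without Dark replicate 2 or 3 (0.0507 to 0.125). AT3G03890 (15.3% ± 3.20 and 30.5% ± 11.9, edgeR adjusted p = 0.0434) was not called without any 1 of the Light libraries or without Dark replicate 1 or 3 (0.0645 to 0.353), nor with only clusters of at least 5% of their gene (0.0540). AT1G66500 (19.9% ± 5.37 and 33.9% ± 1.62, edgeR adjusted p = 0.0347) was not called without Light replicate 1 or 3 or Dark replicate 2 or 3 (0.0563 to 0.208).

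AT5G27730 also held the site with the second largest share of pooled reads, 68.1% after 73.3% in AT1G50970. The site at position 9820153 on the plus strand of chromosome 5, with 4099 reads, took 52.8%, 59.6% and 46.9% in Light and 73.0%, 73.4% and 73.0% in Dark, so the Dark libraries lay close together above all Light ones. Its usage call (edgeR adjusted p = 0.0367) was lost without Light replicate 1 or 3 or Dark replicate 1 or 3 (0.0648 to 0.175). Its 4 members summed to 19.3 ± 1.28 CPM in Light and 110 ± 10.7 in Dark, and the rest of the gene to 12.9 ± 2.55 and 19.3 ± 3.00 CPM. The summed share fell from 85.1% ± 0.993 to 60.2% ± 6.02 (edgeR adjusted p = 0.00671).

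The 6 members with the largest mean share were in AT1G50970, FCA, AT5G27730, ZIFL2, AT3G03360 and AT1G69280. In AT1G50970 the site took 85.0% ± 7.77 in Light and 63.8% ± 7.86 in Dark. It took 69.1% ± 2.11 and 52.1% ± 9.05 in ZIFL2, a transporter of the zinc-induced facilitator family. It took 72.7% ± 6.94 and 54.9% ± 8.83 in AT3G03360, and 72.7% ± 4.91 and 48.5% ± 6.33 in AT1G69280. Each of these 4 was higher in all 3 Light than in all 3 Dark libraries, but none was called by the usage test: the first 2 were not tested, and the others had edgeR adjusted p of 0.208 and 0.112. With limma's diffSplice on the same clusters both tested ones were called (adjusted p = 0.00484 and 0.000614).

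AT4G31980, with 6 members, showed a contrast inside 1 gene. The site at position 15466829 on the plus strand of chromosome 4 took 27.7%, 24.2% and 24.9% in Light and 6.99%, 8.90% and 7.69% in Dark (edgeR adjusted p = 9.86e-07). The site at 15466309, which lies further upstream, took 7.23%, 8.81% and 8.29% in Light and 23.1%, 25.7% and 16.3% in Dark (edgeR adjusted p = 0.000849). Neither pair of groups overlapped. As they moved against each other, the sum of the 6 members was 50.4% ± 3.52 in Light and 57.0% ± 4.47 in Dark and was not called (edgeR adjusted p = 0.709).

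A further 3 genes were chosen after their values were seen. GPX5, a glutathione peroxidase, held the member with most reads, 5069 at position 23309922 on the plus strand of chromosome 3, 185 nt from the gene start. It took 42.2%, 37.2% and 37.5% in Light and 32.3%, 31.1% and 30.5% in Dark, without overlap, yet its usage was not called (edgeR adjusted p = 0.114). CA2, a carbonic anhydrase, had 2 members 48 nt apart that together took 32.7%, 23.6% and 31.5% in Light and 0.901%, 0.323% and 0.471% in Dark (edgeR adjusted p = 1.64e-11). They rose from 0.200 ± 0.135 to 3.79 ± 0.242 CPM while the rest of CA2 fell from 33.3 ± 5.87 to 9.41 ± 2.39 CPM. The sum of the 2 CA2 members passed the filter on low counts only through its Light libraries, so its p-value is a description. In AT1G14650, 5 members took 77.6% ± 3.29 in Light and 43.6% ± 4.63 in Dark (edgeR adjusted p = 1.41e-05), as the rest of the gene fell from 47.1 ± 6.88 to 6.90 ± 0.865 CPM and the members from 36.1 ± 1.99 to 24.0 ± 1.85 CPM.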

How the data were processed

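Raw read counts per poly(A) site cluster of 6 libraries were deposited by the authors in 1 table, with chromosome, strand and position. Bowtie2 and TAIR10 are named in the submitters' processing notes; the sources used here do not give the clustering rule or filters. Gene bounds and symbols came from a RefSeq table on TAIR10.1, which lists no strand: a gene's strand was taken from its reads (at least 20 reads near its ends, 90% on 1 strand). In 93.0% of 18216 genes the cluster with most reads lay within 400 nt of the gene end so found. Clusters up to 200 nt beyond a gene were assigned to it, which placed 164060 clusters. Small RNA neighbours (1424 clusters), clusters shared by genes (2336) and organelles (2359) were left out.

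Tests used edgeR 4.0.16 (R 4.3.3): filterByExpr (minimum count 10, minimum total 15), TMM factors, the quasi-likelihood test for levels and diffSpliceDGE for usage, Light minus Dark, with Benjamini-Hochberg adjustment over all clusters or genes tested at 0.05. The script was tested on simulated data. CPM values are counts per 1 M reads, scaled by TMM factors. Errors are SDs over 3 libraries; members with few reads have wide counting error. Named sites followed the rules given with them, plus every member in the gene lists. The members and lists were chosen with earlier results of these data known. Alternatives were DESeq2 1.42.0, limma 3.58.1 diffSplice, other scalings, filters and site definitions, a replicate block, and each library left out.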

Additional observations from a re-analysis of the deposited data

How the results depend on the processing

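The numbers of called members depended mostly on which clusters were admitted. Usage calls went from 104 higher and 70 lower to 57 and 32 with only clusters of at least 5% of their gene, to 57 and 41 with at least 100 reads, to 44 and 41 beyond 2000 nt, and to 172 higher beyond 500 nt (90 lower), where fewer or more clusters enter by construction. Without the filter 172 calls were made, of which 128 were among the 174 made with it. limma's diffSplice gave 108 and 72. With 1 library left out, usage calls ran from 81 to 104 higher and 53 to 67 lower, summed shares from 66 to 79 and 46 to 57, site levels from 102 to 113 and 146 to 157, gene levels from 89 to 102 and 214 to 233, and the difference (Light minus Dark) in percent of gene-assigned reads at far-upstream sites from -0.0169 to -0.00786. That difference reversed to 0.00203 without GPX5, AT5G27730 and FCA, and to 0.290 as a mean over genes. Gene levels higher in Light went from 100 to 169 with library totals.

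Libraries of Light and Dark share replicate numbers, but same-numbered libraries did not deviate together (correlations 0.0506, 0.00544 and 0.0562), so the numbers were not used as pairs. With a replicate block the counts were 101 and 66 for usage, 77 and 57 for sums, 110 and 154 for site levels, and 101 and 231 for gene levels. The block also ended the calls at AT3G03890 (edgeR adjusted p = 0.0552) and at position 21764680 of AT1G58602 (0.0512). Of 1183 values of the 107 named results under the alternatives, 1099 kept direction and call, 81 lost the call, 3 gained it and 0 reversed. Members near 30 reads have few reads in each library, so small differences there were not detectable.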
